A study of Homo sapiens with 6 samples.

Results

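The genes described here encode the eukaryotic translation initiation factors, the proteins that bring a ribosome to the start codon of an mRNA. They were chosen by gene symbol alone: every gene of the array's annotation whose symbol begins with EIF and a digit from 1 to 6, without the eIF2 kinases (EIF2AK genes) and the eIF4E-binding proteins (EIF4EBP genes). That gave 45 of the 18244 genes with an unambiguous symbol, measured by 145 probe sets. Expression was measured on 1-colour Affymetrix arrays in A549, an established human line from a lung adenocarcinoma. All cells received a lentivirus with a short hairpin RNA, which directs the cell's RNA interference machinery to a matching transcript. In the 3 shTIGD1 arrays the hairpin was directed at TIGD1, a gene of transposon origin, and in the 3 shControl arrays it was a negative control. A single hairpin against TIGD1 was used, and the labels do not state the time after infection or whether the replicates were separate cultures, so the p-values measure a spread that may be technical. The target sequences of both hairpins are shown because they are the only stated difference between the groups.

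shTIGD1: ctgctaacacaacatccat
shNC (control): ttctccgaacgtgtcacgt

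Initiation proceeds in steps, and the factors are grouped by the step they serve. The factor eIF2 carries the initiator methionyl-tRNA together with GTP, and eIF2B recharges it with GTP after each round. The large complex eIF3 and the small factors eIF1, eIF1A and eIF5 act on the small ribosomal subunit while it scans for the start codon. The cap of the mRNA is bound by eIF4F, which consists of the cap-binding protein eIF4E, the helicase eIF4A and the scaffold eIF4G. The GTPase eIF5B then joins the large subunit. The phosphorylation of eIF2 and the release of eIF4E from its binding proteins are the best known controls of the rate of translation, and neither is measured by an mRNA array.

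The values are log2 signals, on which a difference of 1 is a doubling. TIGD1, the target, missed the threshold on the deposited scale. Its sole probe set stood at 6.96, 6.93 and 6.85 in shControl and at 6.88, 6.84 and 6.86 in shTIGD1, so the groups overlapped (log2 difference -0.06, SE 0.04, 95% interval -0.16 to 0.04, limma adjusted p = 0.389). All directions below are therefore those of the arrays labelled shTIGD1 and shControl. The array medians lay between 6.27 and 6.28. Of the markers of the line, the 8 epithelial genes had mean signals from 8.07 to 14.17, while 6 lung lineage genes ranged from 3.34 to 6.80. Of the markers of other cell types, 4 endothelial genes reached at most 5.39, 6 fibroblast genes at most 5.69 and 5 immune genes at most 8.21 (CD14). The epithelial genes EPCAM and CDH1 rose by 0.87 and 0.66, and the dim fibroblast gene COL3A1 fell by 0.56, while no immune, endothelial or lung lineage marker passed (limma). The part of these in the results was not tested. In such bulk samples, fewer cells with a transcript and less of it per cell cannot be told apart.

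The initiation factors split between a few rises and more falls, nearly all of them small. Of the 45 genes, 4 rose and 10 fell in the arrays labelled shTIGD1 at a limma adjusted p under 0.05, and 31 did not pass. The rises were in EIF4E3, EIF4E, EIF2A and EIF4A2, and the falls in EIF5B, EIF1AD, EIF4G1, EIF3B, EIF3E, EIF2B3, EIF3K, EIF2B4, EIF3L and EIF4B. Over all genes 23.8% passed (9.81% higher, 14.0% lower), against 31.1% of the initiation factors. Because these factors are mostly bright on the array, the closer reference is the genes with a mean signal of at least 9. Of those 37.8% passed (16.0% higher, 21.8% lower), as did 35.1% of those of at least 6 (14.8% higher, 20.4% lower). Of the 37 initiation factors with a signal of at least 9, 13 did (35.1%), a limit chosen after the values were seen. The share called is thus near its background, and the list as a whole did not stand out in size. Its median absolute log2 difference was 0.09, beside 0.10 for all genes, and its median log2 difference was -0.03, beside -0.04. The groups did not overlap for 25 of the 45 genes (8 higher, 17 lower), and for 42.3% of all genes. With a signal of at least 9 they did not overlap for 22 of 37 initiation factors (59.5%), beside 67.5% of all genes at that signal. All 14 genes past the threshold were among the 25 without overlap.

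The direction of the falls depended on the scaling. The deposited values were normalized so that the arrays have like distributions. When these deposited values were further levelled on the bacterial hybridization controls added to each sample, every log2 difference moved up by 0.21. The initiation factors then had 30 rises and 0 falls (limma, also 0 lower at an unadjusted p under 0.05), and all genes had 8735 rises and 361 falls. Levelled on the poly-A controls, which are added before amplification, every difference moved up by 0.33, with 40 initiation factors higher and 0 lower (limma, also 0 at an unadjusted p under 0.05) and 13954 of all genes higher and 119 lower. As deposited, the controls themselves read 10.43 to 10.48 (hybridization) and 7.09 to 7.20 (poly-A) on the shControl arrays. On the shTIGD1 arrays they read 10.23 to 10.26 and 6.78 to 6.86. What moved the control signals was not tested. The falls below are thus falls relative to the bulk of the transcripts, and genes called level below are level on the deposited scale. EIF4E3, EIF4E, EIF2A and EIF4A2 were higher under each of these scalings.

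**Figure D1:**
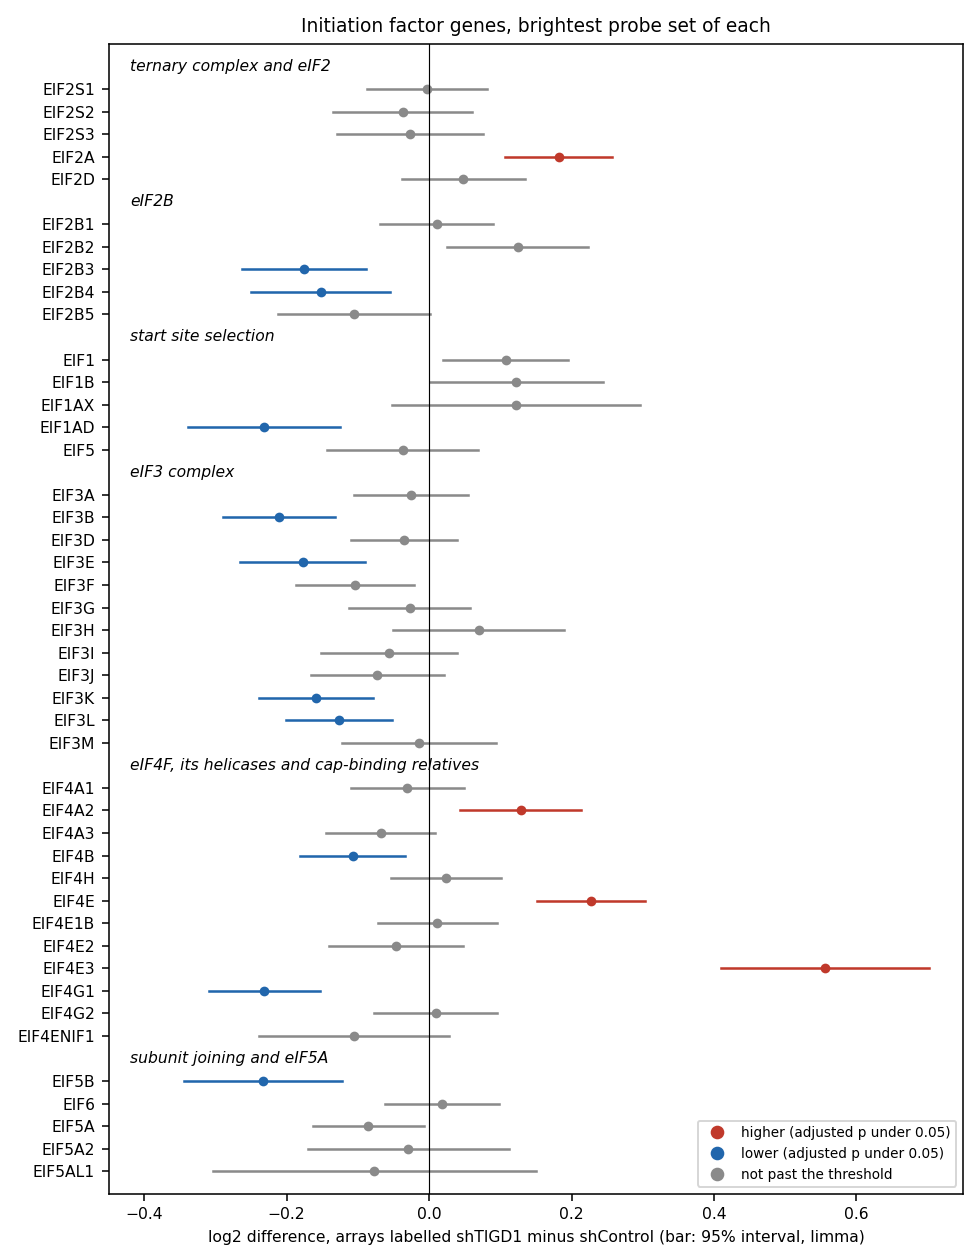
Log2 difference (x axis, arrays labelled shTIGD1 minus shControl, deposited scale) of 44 initiation factor genes in rows by role, each by its brightest probe set; points are estimates and bars are 95% intervals from limma, with 3 arrays per group. EIF4E3 stands apart at 0.56, while all other points lie between -0.23 and 0.23.

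Among the genes of the cap-binding step, EIF4E3 had the largest difference of all the initiation factors by brightest probe set. EIF4E3, a cap-binding relative of eIF4E, stood at 6.83, 6.96 and 6.82 in shControl and at 7.43, 7.50 and 7.34 in shTIGD1. The groups were far apart compared with the spread inside them. It rose 1.47-fold (log2 difference 0.56, SE 0.06, limma adjusted p = 0.00209). Its other 4 probe sets were also higher, by 0.22 to 0.46, and 2 of them passed, 1 of these near background (mean signal 4.31).

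EIF4E, the cap-binding protein itself, read 10.75, 10.77 and 10.75 against 10.96, 10.99 and 11.00. All shTIGD1 arrays lay above all shControl arrays. It rose 1.17-fold (log2 difference 0.23, SE 0.03, adjusted p = 0.00441). The 7 probe sets of EIF4E all had positive differences, from 0.04 to 0.30, and 3 passed, 1 of them near background (mean signal 3.86). EIF4E2, another cap-binding relative that mostly acts in repression, did not pass with its brightest probe set (10.31 ± 0.04 and 10.26 ± 0.04, SD, n = 3 each). EIF4E1B, known from oocytes, read 4.27 ± 0.03 and 4.28 ± 0.03, near the lower end of the array. EIF4ENIF1, which carries eIF4E into the nucleus, read 7.84, 7.91 and 7.72 against 7.68, 7.76 and 7.71, with overlapping groups, and did not pass (log2 difference -0.11, adjusted p = 0.223).

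The scaffold gene EIF4G1, whose product bridges the cap and the ribosome through eIF3, went the other way. It stood at 10.63, 10.66 and 10.61 in shControl and at 10.40, 10.39 and 10.41 in shTIGD1, again without overlap. It fell by 0.23 on the log2 scale (1.17-fold, SE 0.03, adjusted p = 0.00464), and stood at -0.02 when levelled on the hybridization and at 0.10 on the poly-A controls, neither past the threshold. All 3 of its probe sets fell, between -0.26 and -0.23. EIF4G2, a related scaffold without the eIF4E-binding part, was level as deposited (13.05 ± 0.01 and 13.06 ± 0.04, 95% interval of the change -5.19% to 6.88%). It stood at 0.22 on the hybridization and 0.34 on the poly-A controls, both past the threshold (limma adjusted p = 0.00657 and 0.002). Set against EIF4G2 within each array, EIF4G1 changed by -0.24 (SE 0.03), a ratio that no scaling of whole arrays alters.

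The helicase genes differed between paralogues. EIF4A1, the abundant RNA helicase of eIF4F, read 13.82, 13.82 and 13.78 and then 13.76, 13.77 and 13.80, with overlapping groups (log2 difference -0.03, adjusted p = 0.556). None of its 7 probe sets passed. EIF4A2, its close paralogue, read 11.39, 11.38 and 11.31 against 11.50, 11.48 and 11.48, and rose by 0.13 (SE 0.04, adjusted p = 0.0427). Its dimmer probe sets moved further, by 0.23, 0.65 and 0.61, and all 3 passed. For the brightest probe set the call did not survive the removal of any single array (adjusted p up to 0.128) and was also lost when adjusted over all probe sets (adjusted p = 0.0567).

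Within each array, EIF4A2 gained 0.16 on EIF4A1 (SE 0.02) and EIF4E gained 0.27 on EIF4E2 (SE 0.03), while EIF4E3 gained 0.33 on EIF4E (SE 0.07). With 3 arrays against 3, the exact two-sided permutation test cannot go below 0.1, and all 4 paralogue ratios tested gave 0.1 (also 0.1 after Benjamini-Hochberg adjustment over the 4). The pairs were chosen with these values known.

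Of the cofactors of eIF4A, EIF4B passed as lower, at 12.24, 12.22 and 12.22 against 12.12, 12.12 and 12.11. The groups were separate but close, and the fall was 0.11 (SE 0.03, adjusted p = 0.0476). It was lost without any 1 of the 6 arrays (adjusted p from 0.0954 to 0.125), and the mean of its 5 probe sets turned to 0.04, so EIF4B has no settled direction. EIF4H, a smaller protein of like function, was level with its brightest probe set (13.14 and 13.17, log2 difference 0.02), while its second probe set rose by 0.36 (adjusted p = 0.00267 over all probe sets). EIF4A3, which belongs to the exon junction complex rather than to eIF4F, read 11.40 ± 0.02 and 11.33 ± 0.01 and did not pass (adjusted p = 0.179).

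**Figure D2:**
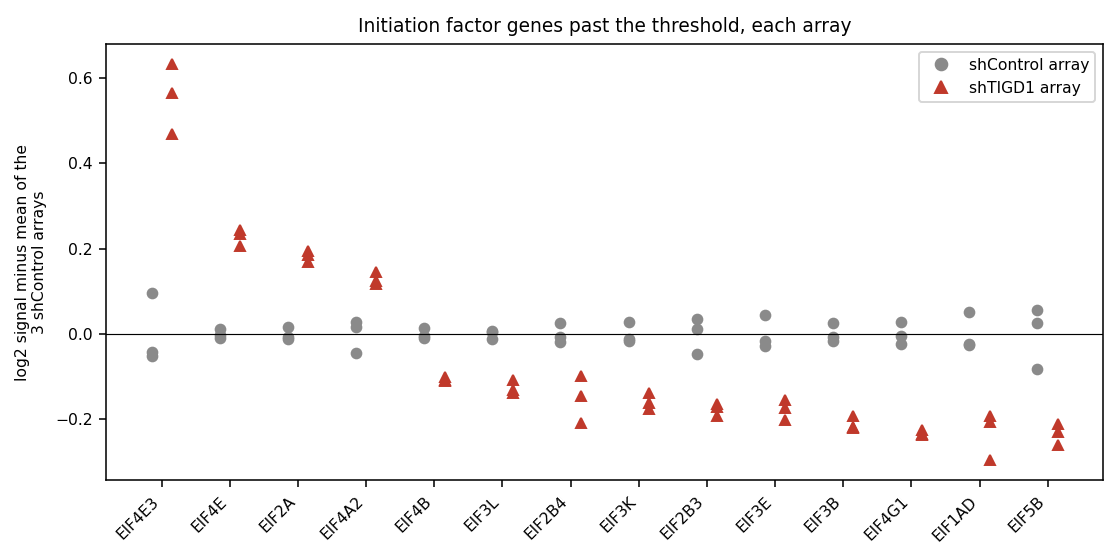
Log2 signal minus the mean of the 3 shControl arrays (y axis) for the 14 initiation factor genes past the threshold, sorted by difference; circles are shControl arrays and triangles shTIGD1 arrays. Triangles and circles do not overlap for any of the 14 genes.

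In eIF3, the scaffold complex on the small subunit, the changes that passed were all falls as deposited. Of 12 subunit genes, 4 fell and 0 rose (limma; 5 had an unadjusted p under 0.05, all lower), with a median log2 difference of -0.06 that turned to 0.14 and 0.27 on the hybridization and poly-A controls. Over all genes 14.0% fell, and of genes with a signal of at least 9, 21.8%. EIF3B, the core subunit that binds RNA and other subunits, stood at 12.42, 12.37 and 12.38 in shControl and at 12.17, 12.17 and 12.20 in shTIGD1. It fell by 0.21 (SE 0.03, adjusted p = 0.00623), and 7 of its 8 probe sets fell, by up to 0.34. The remaining one had a mean signal of 4.83 and a difference of 0.01. With the hybridization controls the EIF3B difference was -0.00 and with the poly-A controls 0.12, neither past the threshold.

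EIF3E, a subunit with a PCI domain, read 12.75, 12.69 and 12.68 against 12.53, 12.55 and 12.50, and fell by 0.18 (SE 0.04, adjusted p = 0.0167) with both of its probe sets. EIF3K, a small subunit that pairs with EIF3L, read 13.02, 12.98 and 12.97 against 12.83, 12.81 and 12.85, and fell by 0.16 (SE 0.03, adjusted p = 0.0178). EIF3L read 12.19, 12.19 and 12.17 against 12.08, 12.05 and 12.05, and fell by 0.13 (SE 0.03, adjusted p = 0.0305). None of these 3 genes had overlapping groups, but their margins were narrow. The EIF3E call was lost without shControl replicate 1 or shTIGD1 replicate 1 or 3 (adjusted p up to 0.0607), the EIF3K call without shControl replicate 1 or shTIGD1 replicate 1 or 2 (up to 0.0630), and the EIF3L call without any 1 array (0.0659 to 0.0910). All 3 differences were positive with either control scaling.

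The other eIF3 genes did not pass. EIF3A, the largest subunit, read 10.72 ± 0.02 and 10.70 ± 0.03. EIF3F had the largest difference among them (12.79, 12.76 and 12.74 against 12.68, 12.63 and 12.67, without overlap, log2 difference -0.10, adjusted p = 0.0747), and EIF3H the only positive one (0.07, adjusted p = 0.369). EIF3D, EIF3G, EIF3I, EIF3J and EIF3M lay between -0.07 and -0.01. The probe sets of EIF3C are shared with its copy EIF3CL in the annotation, so that gene is not described.

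The 3 subunits of eIF2 showed why a single probe set per gene can mislead. By their brightest probe sets none of them moved past the threshold: EIF2S1 (alpha, the subunit whose phosphorylation slows translation) read 10.63 ± 0.04 and 10.63 ± 0.02, EIF2S2 (beta) 12.42 ± 0.04 and 12.38 ± 0.05, and EIF2S3 (gamma) 11.54 ± 0.01 and 11.52 ± 0.07. Yet 3 of the 5 EIF2S1 probe sets rose. One of them stood at 9.41, 9.43 and 9.40 in shControl and at 9.88, 9.89 and 9.92 in shTIGD1, a rise of 0.48 (SE 0.04, limma adjusted p over all probe sets 0.000641).

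Another EIF2S1 probe set rose by 0.24 and the dimmest by 0.79, while the second brightest was level at -0.01. For EIF2S2 and EIF2S3 the dimmer probe sets that passed went down instead: 1 of 3 by 0.28 for EIF2S2 and 2 of 4 by 0.20 and 0.21 for EIF2S3. No direction is given for the eIF2 subunits. Other proteins deliver initiator tRNA by other routes. EIF2A read 10.43, 10.46 and 10.44 against 10.64, 10.63 and 10.61, without overlap, and rose by 0.18 (SE 0.03, adjusted p = 0.00907). Its second probe set lay near background (4.52) and did not pass. EIF2D read 9.68, 9.71 and 9.67 against 9.78, 9.71 and 9.72, with overlapping groups, and did not pass (log2 difference 0.05, adjusted p = 0.382).

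**Figure D3:**
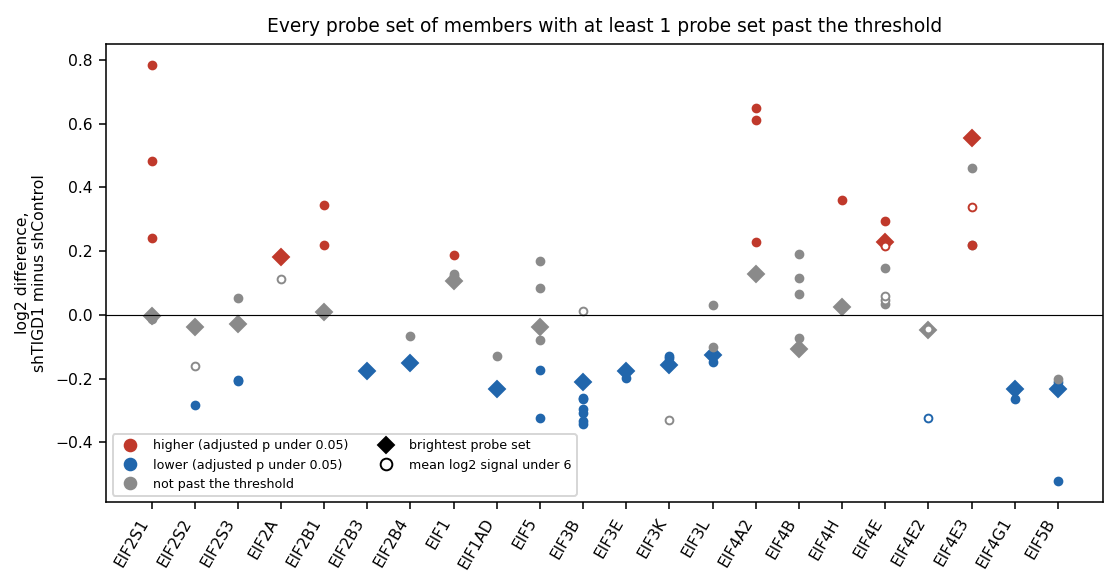
Log2 difference (y axis, shTIGD1 minus shControl) of every probe set of the initiation factor genes with at least 1 call; diamonds mark the brightest probe set, open symbols a mean log2 signal under 6, and colours the limma call adjusted over all 45278 probe sets. No gene has probe sets called in both directions, but EIF2S1, EIF4H and EIF5 have a level brightest probe set and others past the threshold.

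Over all probe sets, 17 of the 145 were higher and 29 lower, where 11.7% and 10.8% of all 45278 were. No initiation factor gene had probe sets past the threshold in opposite directions. On this adjustment, in 9 genes the brightest probe set did not pass and another one did. These were EIF2S1, EIF2B1, EIF1, EIF4A2 and EIF4H upwards and EIF2S2, EIF2S3, EIF5 and EIF4E2 downwards, the last at a mean signal of 4.83. Of the brightest probe sets, 20 of 45 carry a suffix (_s_at or _x_at) by which the maker marks probes that can also match transcripts of other genes, among them those of EIF3B, EIF3E, EIF4A2, EIF4B and EIF4E.

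In eIF2B, the exchange factor that recharges eIF2, the subunits did not move together. EIF2B3, the gamma subunit, read 9.73, 9.70 and 9.65 against 9.50, 9.52 and 9.53, and fell by 0.18 (SE 0.04, adjusted p = 0.0166) with its only probe set. EIF2B4, the delta subunit, read 10.53, 10.56 and 10.51 against 10.39, 10.32 and 10.43, and fell by 0.15 (SE 0.04, adjusted p = 0.0393). Both turned positive with the control scalings (0.03 and 0.06 with hybridization, 0.16 and 0.18 with poly-A controls). EIF2B4 was lost without any 1 array (adjusted p from 0.0502 to 0.102) and EIF2B3 without shControl replicate 1 or 2 or shTIGD1 replicate 1 (up to 0.0626).

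The catalytic subunit gene EIF2B5 read 8.86 ± 0.06 and 8.75 ± 0.04 and did not pass (adjusted p = 0.140). EIF2B2, the beta subunit, had separate groups in the upward direction (11.16, 11.13 and 11.09 against 11.26, 11.20 and 11.30) but missed the threshold (log2 difference 0.12, adjusted p = 0.0763). EIF2B1, the alpha subunit, was level with its brightest probe set (0.01), while its other 2 rose by 0.22 and 0.34.

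Of the 6 genes grouped with the choice of the start codon, EIF1AD alone passed, a gene placed there by its symbol. It is named for its similarity to eIF1A and is better known from the maturation of the small ribosomal subunit. It read 9.18, 9.10 and 9.10 against 8.83, 8.93 and 8.92, and fell by 0.23 (SE 0.04, adjusted p = 0.0128). Its second probe set had -0.13 and did not pass. With the hybridization controls the brightest probe set was at -0.02 and with the poly-A controls at 0.10, neither past the threshold. EIF1, the gatekeeper of start codon fidelity, read 13.56, 13.62 and 13.64 against 13.71, 13.74 and 13.70. The groups were separate, but the difference of 0.11 missed the threshold (adjusted p = 0.0813), and 1 of its 4 probe sets passed, by 0.19. Its paralogue EIF1B had a difference of 0.12 (adjusted p = 0.134), and EIF1AX, the gene of eIF1A, also 0.12 (8.62, 8.86 and 8.76 against 8.96, 8.82 and 8.83, overlapping, adjusted p = 0.276). EIF1AY, the Y-linked copy, is counted among the genes that did not pass, and its level is not given.

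EIF5, which makes eIF2 hydrolyse its GTP at the start codon, was level with its brightest probe set (11.05 ± 0.06 and 11.01 ± 0.04). Of its 7 probe sets 2 fell, by 0.32 and 0.17, and the other 5 lay between -0.08 and 0.17 and did not pass.

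At the last step, EIF5B fell. It stood at 9.60, 9.74 and 9.71 in shControl and at 9.45, 9.47 and 9.42 in shTIGD1, a separation larger than the spread of either group (log2 difference -0.23, SE 0.05, adjusted p = 0.0146). All 4 of its probe sets were lower and 3 passed, the largest fall being 0.52 (9.68, 9.63 and 9.60 against 9.18, 9.06 and 9.10). The call of the brightest was lost without shTIGD1 replicate 3 (adjusted p = 0.0540), and its difference was -0.03 levelled on the hybridization and 0.10 on the poly-A controls. EIF6, which keeps the subunits apart until they are mature, was level as deposited (12.26 ± 0.03 and 12.28 ± 0.01, 95% interval of the change -4.20% to 7.05%). It stood at 0.23 on the hybridization and 0.35 on the poly-A controls, both past the threshold (limma adjusted p = 0.00473 and 0.000812).

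EIF5A, the hypusine-carrying factor now known mainly for its part in elongation, read 12.81, 12.80 and 12.79 against 12.69, 12.74 and 12.72. The groups were separate, yet the difference of -0.09 did not pass (adjusted p = 0.108). Its paralogue EIF5A2 read 7.11 ± 0.10 and 7.08 ± 0.06 and did not pass. The retrocopy EIF5AL1 read 3.17 ± 0.09 and 3.09 ± 0.18, at about the median of the array's 23 background probe sets (3.27).

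Of the 14 calls, 6 held when each of the 6 arrays was left out in turn, those of EIF4E3, EIF4E, EIF2A, EIF4G1, EIF3B and EIF1AD. Their highest adjusted p-values were 0.0125, 0.0222, 0.0410, 0.0233, 0.0301 and 0.0426.

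**Figure D4:**
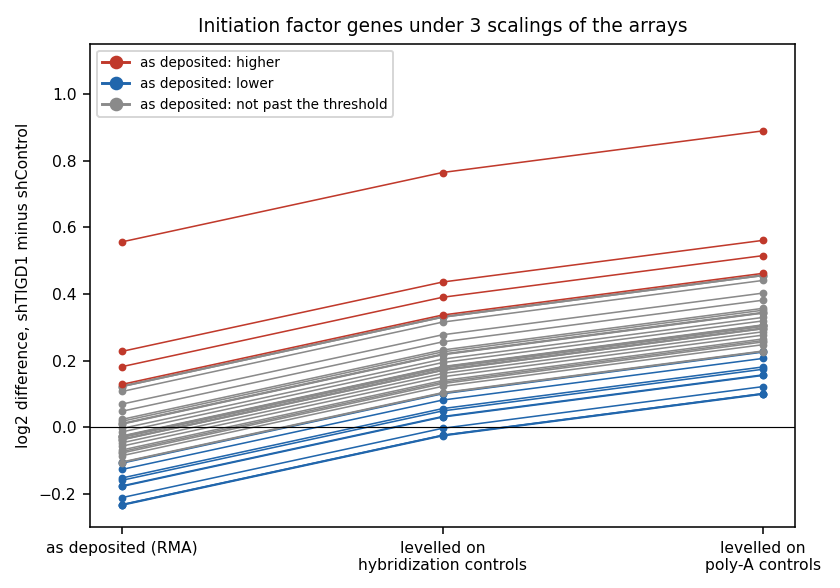
Log2 difference (y axis, shTIGD1 minus shControl) of 44 initiation factor genes as deposited and with the arrays levelled on the hybridization or the poly-A controls (x axis); each line is a gene, coloured by its call as deposited. All lines run parallel, because the scalings add 0.21 and 0.33 to every gene, and the lines of the 10 falls end above 0.

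The promoters of the initiation factor genes, whatever their call, were searched for the E-box CACGTG. It reads the same on both strands and is the site of MYC and of USF factors. The search was made because the list includes EIF4E, a textbook gene with such sites. RefSeq windows of 250 bases before the annotated start (GRCh38.p14) were found for 39 of the 45 genes. EIF2S2, EIF3A, EIF3E, EIF3G, EIF3H and EIF3L had none. The E-box was present for 10 of the 39 (25.6%), beside 9.79% of 14488 tested genes with a window and 6.34% of all 35116 windows. For this and the other motifs below, no share was computed for bright genes alone, the closer reference used above. Genes with an E-box were among the rises (1 of 4), the falls (4 of 8) and those not past the threshold (5 of 27). The falls here are calls as deposited and include EIF4B, which has no settled direction. The 5 windows of genes past the threshold are shown 5′ to 3′, with the E-boxes in capitals.

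EIF4E: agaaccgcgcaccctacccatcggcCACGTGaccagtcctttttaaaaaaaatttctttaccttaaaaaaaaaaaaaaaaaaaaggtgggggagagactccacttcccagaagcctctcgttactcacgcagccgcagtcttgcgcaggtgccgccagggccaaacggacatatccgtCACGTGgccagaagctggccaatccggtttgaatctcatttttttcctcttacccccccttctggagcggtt
EIF4G1: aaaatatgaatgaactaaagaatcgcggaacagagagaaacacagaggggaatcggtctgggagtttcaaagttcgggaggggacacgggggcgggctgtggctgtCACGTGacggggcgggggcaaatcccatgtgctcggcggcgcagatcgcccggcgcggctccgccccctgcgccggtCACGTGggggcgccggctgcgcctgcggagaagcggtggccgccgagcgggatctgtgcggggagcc
EIF4B: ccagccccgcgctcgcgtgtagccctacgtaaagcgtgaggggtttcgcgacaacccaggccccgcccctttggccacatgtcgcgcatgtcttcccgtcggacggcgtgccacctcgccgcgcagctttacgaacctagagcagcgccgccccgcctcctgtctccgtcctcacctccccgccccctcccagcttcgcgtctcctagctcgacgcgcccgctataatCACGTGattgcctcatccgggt
EIF3K: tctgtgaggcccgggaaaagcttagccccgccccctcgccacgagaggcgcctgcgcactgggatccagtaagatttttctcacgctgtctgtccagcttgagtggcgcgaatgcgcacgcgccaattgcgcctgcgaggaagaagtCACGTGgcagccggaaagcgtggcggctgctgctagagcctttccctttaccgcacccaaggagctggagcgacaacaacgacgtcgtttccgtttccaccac
EIF2B3: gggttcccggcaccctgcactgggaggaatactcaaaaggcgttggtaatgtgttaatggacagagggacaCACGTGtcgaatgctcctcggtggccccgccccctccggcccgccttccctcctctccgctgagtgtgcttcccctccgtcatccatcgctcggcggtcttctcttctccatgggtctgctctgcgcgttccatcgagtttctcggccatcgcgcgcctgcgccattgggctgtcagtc

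The EIF4E window (chr4:98929134-98929383, minus strand) holds 2 E-boxes, starting 225 and 72 bases before the transcript. That of EIF4G1 (chr3:184314356-184314605, plus strand, 1 of 3 windows of the gene) also holds 2, at 144 and 67 bases. EIF4B (chr12:53006206-53006455, plus strand) has 1 at 22 bases, EIF3K (chr19:38618938-38619187, plus strand) 1 at 103 bases and EIF2B3 (chr1:44986596-44986845, minus strand) 1 at 179 bases. EIF4E and EIF4G1, with 2 E-boxes each, had opposite signs as deposited. In all, 8 motifs were searched on both strands or, for the last, at the start itself, and the E-box and the transcript start described next had the largest ratios to the tested genes. The ETS core CCGGAA was in 35.9% of the initiation factors' windows by gene (23.5% of tested genes), the CCAAT box in 46.2% (40.5%), the CRE core TGACG in 46.2% (30.9%) and the TATA box TATAAA in 2.56% (11.5%). The full CRE and NRF1 sites were in 0 of 39 (2.80% and 1.80%). The last search looked for a transcript start of C followed by 4 pyrimidines, the beginning of the terminal oligopyrimidine tract by which mTOR controls many mRNAs of the translation machinery. Such starts were found for 9 of 39 initiation factors (23.1%), beside 6.33% of the tested genes and 43 of 79 ribosomal protein windows. The 9 were EIF2A and EIF4A2 among the genes called higher, EIF3K and EIF4B among those called lower, and EIF2D, EIF2S3, EIF3D, EIF3F and EIF3M. A match of letters is a description, not a shown site.

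The genes that control or assist initiation were described next, with lists chosen from textbook knowledge. Of 23 regulators, 4 rose and 6 fell (43.5%, beside 23.8% of all genes and 37.8% of genes with a signal of at least 9), with a median log2 difference of -0.03. Of the eIF2 kinases, which slow initiation under stress, EIF2AK3 rose and EIF2AK2 fell as deposited. EIF2AK1 and EIF2AK4 did not pass (log2 differences -0.06 and -0.03 by their brightest probe sets). Of the 8 probe sets of EIF2AK1, 1 was called higher and 2 lower. EIF2AK3, the kinase PERK of the endoplasmic reticulum, read 8.08, 8.23 and 8.18 against 8.54, 8.58 and 8.54, and rose by 0.39 (SE 0.05, adjusted p = 0.00285) with all 3 probe sets. EIF2AK2, the kinase PKR that senses double-stranded RNA, read 8.51, 8.52 and 8.46 against 8.20, 8.20 and 8.21, and fell by 0.29 (SE 0.03, adjusted p = 0.00258), which shrank to -0.09 on the hybridization controls (adjusted p = 0.120, no longer past the threshold) and turned to 0.04 on the poly-A controls.

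The phosphatase partners that reverse eIF2 phosphorylation also split. PPP1R15B, the constitutive one, rose by 0.37 with all 4 probe sets (9.53, 9.61 and 9.59 against 9.97, 9.96 and 9.92, adjusted p = 0.00171). PPP1R15A, the stress-induced one, fell by 0.16 (9.97, 9.90 and 9.90 against 9.80, 9.74 and 9.74, adjusted p = 0.0257) and turned to 0.04 and 0.17 with the control scalings. Its call was lost without any 1 array (adjusted p up to 0.0817). GCN1, an activator of the kinase GCN2, fell by 0.20 (adjusted p = 0.0112), but stood at 0.01 and 0.14 with the control scalings.

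Of the regulators of eIF4F, the kinase gene MTOR rose by 0.23 (8.75, 8.79 and 8.96 against 9.06, 9.06 and 9.06, adjusted p = 0.0334), by 1 of its 3 probe sets, the lowest of which was at -0.04. That call held only without shControl replicate 3 and was lost without any other array (adjusted p up to 0.0897). The brightest probe set of MKNK2, a kinase of eIF4E, rose by 0.27 (adjusted p = 0.00332) while its second brightest fell by 0.31, so no direction is given for it. The eIF4E-binding proteins EIF4EBP1 and EIF4EBP2 were level (log2 differences -0.03 and -0.01). DHPS and DOHH, the enzymes that make the hypusine of eIF5A, fell by 0.13 each (adjusted p = 0.0342 and 0.0481), as did RPS6KB2, an S6 kinase gene, by 0.15 (adjusted p = 0.0177). All 3 turned positive with both control scalings, and DHPS and DOHH were lost without any 1 array (adjusted p up to 0.142) and RPS6KB2 without any 1 array but shControl replicate 3 (up to 0.0578). Of the 4 probe sets of RPS6KB2, 2 passed, as lower. The other S6 kinase gene, RPS6KB1, did not pass with its brightest probe set (log2 difference 0.12, adjusted p = 0.0868). Yet 5 of its 7 probe sets passed as higher and 0 as lower, so the S6 kinase genes had no common direction.

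Of 15 partners of initiation, 3 rose and 2 fell (33.3%, between the 23.8% of all genes and the 37.8% of genes with a signal of at least 9), with a median of -0.01. PAIP1, a partner of the poly(A)-binding protein that stimulates translation, read 10.19, 10.29 and 10.28 against 10.66, 10.78 and 10.61, and rose by 0.43 (SE 0.06, adjusted p = 0.00364) with all 4 probe sets, by up to 0.88. BZW2, an eIF5 mimic that competes with eIF5, read 11.04, 11.05 and 11.00 against 10.72, 10.67 and 10.76, and fell by 0.31 (SE 0.04, adjusted p = 0.00304) with all 6 probe sets. BZW2 was at -0.10 levelled on the hybridization and 0.02 on the poly-A controls, neither past the threshold. The helicase gene DHX29 fell by 0.19 (adjusted p = 0.0184; 0.02 and 0.14 with the control scalings), and was lost without shControl replicate 1 or 2 or shTIGD1 replicate 1 or 3 (up to 0.0654). The helicase gene DDX3X rose by 0.16 (adjusted p = 0.0459) and CTIF, which acts with the nuclear cap-binding complex, by 0.13 (adjusted p = 0.0426), and both were lost without any 1 array (up to 0.121 and 0.129). For DDX3X 6 of 8 probe sets rose, by up to 0.76.

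Elongation and termination factors had 3 falls and 0 rises among 11 (limma; 4 had an unadjusted p under 0.05, all lower), with a median of -0.04. That is 27.3% called, beside 23.8% of all genes, of which 14.0% were lower. EEF2K, the kinase that inhibits elongation, read 8.81, 8.79 and 8.79 against 8.46, 8.52 and 8.56, and fell by 0.28 (SE 0.04, adjusted p = 0.00419), while its second probe set had 0.08. EEFSEC, the selenocysteine elongation factor, fell by 0.18 (adjusted p = 0.0317) and EEF1D by 0.13 (adjusted p = 0.0404). The EEFSEC call held only without shControl replicate 2 (adjusted p otherwise up to 0.0976), and the EEF1D call was lost without any 1 array (up to 0.129). With the poly-A controls all 3 had positive differences. The main elongation factor genes EEF1A1 and EEF2 were level (0.05 and -0.04, neither past the threshold).

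**Figure D5:**
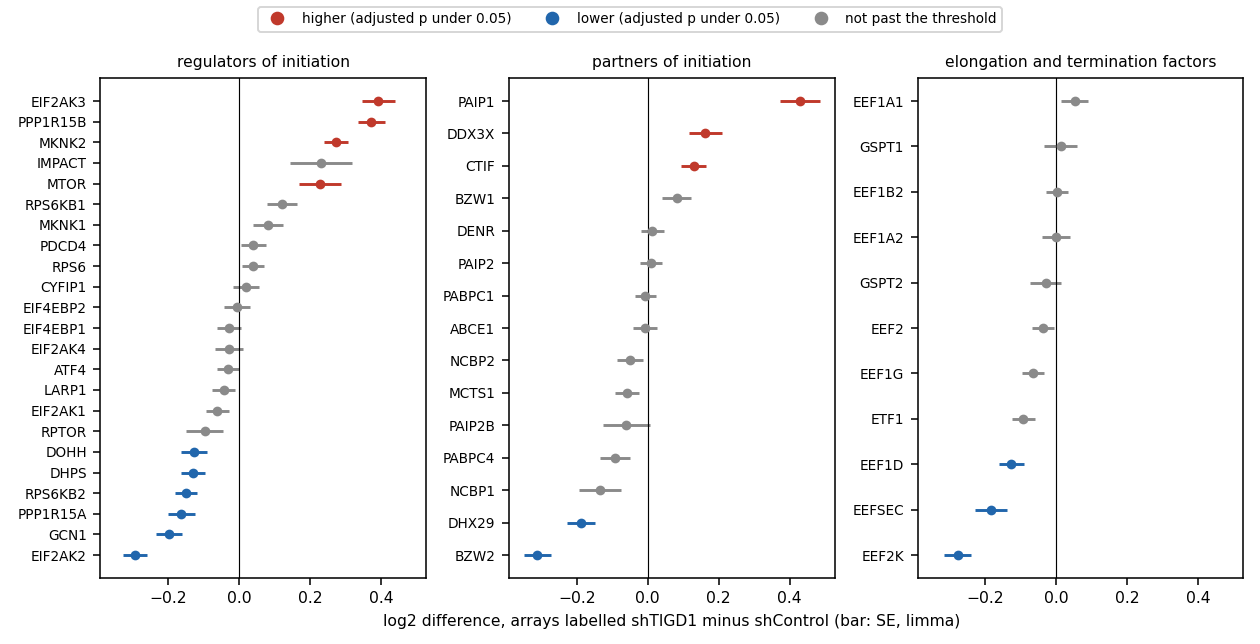
Log2 difference (x axis, arrays labelled shTIGD1 minus shControl, deposited scale) of 23 regulators of initiation, 15 partners and 11 elongation and termination factors; points are brightest probe sets and bars are standard errors from limma. PAIP1, EIF2AK3 and PPP1R15B are the highest, and BZW2, EIF2AK2 and EEF2K the lowest.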

How the data were processed

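Biotin-labelled RNA of 6 arrays was analysed, 3 shControl and 3 shTIGD1 by their titles. The authors deposited log2 signals per probe set, and the submitters' processing notes name GCOS and RMA without a version. Their range shows the log base. RMA makes array distributions alike, so a shift common to most genes is removed before deposit. Of 49395 probe sets, 45278 had exactly 1 gene symbol in the platform annotation, and 13 that name an initiation factor beside another gene were not used. Each of 18244 genes was represented by the brightest probe set (mean of 6 arrays), and 38 of the 45 initiation factors had several.

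Genes were compared with limma 3.58.1 (lmFit, eBayes) in R 4.3.3 (two-sided; Benjamini-Hochberg over the 18244 genes; called at an adjusted p under 0.05); all 6 values are given for initiation factors past it and for the largest difference in each role that is not. On simulated data with the means and spread of these 18244 genes, in 12 simulations, 26% to 46% of 50 genes changed 1.2-fold, 72% to 94% of 50 changed 1.5-fold and 94% to 100% of 50 changed 2-fold were recovered. Each simulation gave 156 to 177 calls, against 4340 here, so the adjustment was stricter there. The recovered shares thus do not measure recovery in these data. Tables were made with Python 3.11.15. Alternatives were other probe set rules, normalizations, control scalings (14 hybridization and 24 poly-A probe sets), filters, model settings and left-out arrays. The members and lists were chosen with earlier results of these data known. The number of arrays limits the precision. Sequences are from RefSeq. Members are named by role, and other pathway genes where past the threshold. The exceptions are EIF2AK1, EIF2AK4, EIF4EBP1, EIF4EBP2, RPS6KB1, EEF1A1 and EEF2, which were named after their values were seen.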

Additional observations from a re-analysis of the deposited data

How the results depend on the processing

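Of all genes called, the number (4340) was 2765 by second brightest probe sets, 9096 on the hybridization and 14073 on the poly-A controls, and 2741 to 3386 when 1 array was left out. The initiation factors called higher (4) were 8 with the mean of all probe sets, 8 when any probe set counted, 7 with a signal filter at 5 and also 7 with one at 6, 8 with trend and robust settings, 30 on the hybridization and 40 on the poly-A controls, and 3 to 4 when 1 array was left out. Those called lower (10) were 0 with either control scaling (limma, also 0 at an unadjusted p under 0.05) and 4 to 7 with 1 array left out, where fewer arrays widen the errors. The regulators and partners called (15) were 26 and 36 with the control scalings and 7 to 10 with 1 array left out. TIGD1 turned to 0.15 with hybridization and 0.28 with poly-A controls. Both passed the threshold as higher (limma adjusted p = 0.0388 and 0.00227).

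With the replicate number as a block (replicate block), all genes called numbered 2391, with 2 initiation factors higher and 3 lower, and 6 regulators and partners passed. Same-numbered arrays did not deviate together over all genes (correlations of -0.03, -0.13 and -0.09). These correlations show no pairing by number but cannot exclude it, and the labels state none.

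Sign changes are listed for initiation factors past the threshold in either fit, and for pathway genes only where past it as deposited. Other pathway genes that turned are not listed. The log2 differences that turned with the hybridization controls, by construction a shift of every gene, were EIF2S1 0.20, EIF2S2 0.17, EIF2S3 0.18, EIF2B3 0.032, EIF2B4 0.056, EIF5 0.17, EIF3A 0.18, EIF3D 0.17, EIF3E 0.031, EIF3G 0.18, EIF3I 0.15, EIF3J 0.14, EIF3K 0.049, EIF3L 0.082, EIF3M 0.19, EIF4A1 0.18, EIF4A3 0.14, EIF4B 0.10, EIF4E2 0.16, EIF5A 0.12, PPP1R15A 0.045, GCN1 0.010, RPS6KB2 0.059, DHPS 0.077, DOHH 0.081, DHX29 0.020, EEF1D 0.081 and EEFSEC 0.023. With the poly-A controls they were EIF2S1 0.33, EIF2S2 0.30, EIF2S3 0.31, EIF2B3 0.16, EIF2B4 0.18, EIF2B5 0.23, EIF1AD 0.10, EIF5 0.30, EIF3A 0.31, EIF3B 0.12, EIF3D 0.30, EIF3E 0.16, EIF3F 0.23, EIF3G 0.31, EIF3I 0.28, EIF3J 0.26, EIF3K 0.17, EIF3L 0.21, EIF3M 0.32, EIF4A1 0.30, EIF4A3 0.27, EIF4B 0.23, EIF4E2 0.29, EIF4G1 0.10, EIF4ENIF1 0.23, EIF5B 0.099, EIF5A 0.25, EIF5A2 0.30, EIF2AK2 0.040, PPP1R15A 0.17, GCN1 0.14, RPS6KB2 0.18, DHPS 0.20, DOHH 0.21, DHX29 0.14, BZW2 0.022, EEF1D 0.21, EEF2K 0.054 and EEFSEC 0.15. With the mean of all probe sets, EIF2S1 0.30 and EIF4B 0.039 turned, and with the second brightest, EIF4B 0.066, MKNK2 -0.31 and EEF2K 0.083. The cause of the disagreement between probe sets was not tested. Among the initiation factors, differences past the threshold in neither fit also took the other sign. There were 5 with the hybridization controls (EIF2B5, EIF3F, EIF4ENIF1, EIF5A2 and EIF5AL1), 1 with the poly-A controls (EIF5AL1), 3 with the mean of probe sets (EIF3A, EIF3M and EIF5A2), 4 with the second brightest (EIF3A, EIF3M, EIF4G2 and EIF5A2), 2 with repeated quantile normalization (EIF2B1 and EIF4G2) and 1 to 5 with 1 array left out, other than shControl replicate 3. Signal near background limits EIF4E1B and EIF5AL1.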
